A study of Mus musculus with 6 samples.

Results

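The nuclei described here are the inhibitory neurons caught in single-nucleus libraries of photothrombotic (PT) brain lesions. They were chosen by their counts of unique molecular identifiers (UMIs, 1 for each captured RNA molecule). A barcode, which stands for 1 nucleus, was a member when it held at least 4000 UMIs with under 5% from mitochondrial genes, at least 4 UMIs over Gad1 and Gad2 with both detected, and at least 2 of the neuronal genes Snap25, Syt1, Rbfox3 and Grin2b. It could hold at most 1 UMI of Slc17a7, the vesicular glutamate transporter of cortical excitatory neurons, and at most 1 of the non-neuronal genes Ptprc, Csf1r, Col1a2, Mog and Aqp4. Of 67360 barcodes, 44281 passed the UMI and mitochondrial filters and 1184 were members. In mm10, Gad1 lies at chr2:70553072-70602014 and Gad2 at chr2:22622205-22693874, both on the plus strand.

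The study examined lesions of adult mice after PT injury, in which light and a dye close cortical vessels. Ctrl mice were wild-type (WT) with no treatment named in the labels, ADWA11 mice were WT and received an antibody against integrin αvβ8 weekly from the day of injury, and Tgfbr2-cKO mice carried Col1a2(creER) and Tgfbr2(flox), a tamoxifen-inducible deletion of the type II TGFβ receptor aimed at fibroblasts. Each condition was sampled at 7 and at 21 days post injury (dpi), all after injury, and each of the 6 groups was 1 library that pooled tissue of 1 male and 1 female mouse. With no second library in any group there was no test of a difference between groups, and every interval below is a 95% interval that covers counting error only.

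Inhibitory neurons make GABA with the enzymes encoded by Gad1 and Gad2 and load it into vesicles through Slc32a1. Cortical inhibitory neurons arise mainly in the medial ganglionic eminence (MGE), which gives the Pvalb and Sst neurons and uses the transcription factor Lhx6, and in the caudal ganglionic eminence (CGE), which gives the Vip neurons and most Lamp5 neurons and uses Prox1 and Adarb2. The projection neurons of the striatum, which lies beneath the cortex, are inhibitory as well, and they are known for Pde10a, Rgs9, Ppp1r1b and either Drd1 or Drd2. A further kind of inhibitory neuron carries Meis2, Pbx3 and Tshz1, genes of the lateral ganglionic eminence and of newly made olfactory bulb neurons.

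The label of cortical neurons held only in part. The methods of the study describe removing subcortical structures from the lesion, yet 429 of 947 members in the Tgfbr2-cKO library at 7 dpi held UMIs of at least 4 of 12 genes of striatal projection neurons (45.3%, 42.1 to 48.5%). Members are therefore called Gad1 and Gad2 inhibitory nuclei, those with at least 4 striatal genes are called striatal-type nuclei, and those with at least 10 Meis2 UMIs per 10000 UMIs and fewer than 4 striatal genes are called Meis2-high nuclei. The members in neither class are called the other inhibitory nuclei. Genes that chose a class are given for it as a description.

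The libraries held 64798965 to 140310354 UMIs in all, and the median member held 7585.5 to 32434.5 UMIs by library. The rule left near neighbours outside it. In the Tgfbr2-cKO library at 7 dpi, 111 members sat at the minimum of 4 Gad1 and Gad2 UMIs and 88 barcodes met the rest of the rule with 3, 119 were outside for Slc17a7 alone and 94 for non-neuronal genes alone. In the Tgfbr2-cKO library at 21 dpi 3 were outside for Slc17a7 alone and 12 for non-neuronal genes alone, beside 176 members. Non-neuronal genes alone kept out 6 barcodes in Ctrl and 3 in ADWA11 at 7 dpi, and 22 in Ctrl and 8 in ADWA11 at 21 dpi, so that in Ctrl at 21 dpi more barcodes were kept out than the 17 kept. A simulation scored barcodes as doublets, and a fixed top share of each library was called. In Tgfbr2-cKO at 7 dpi 51 of 947 members were called (5.39%, against 9.20% of all barcodes). At 21 dpi 3 members were called in ADWA11 (11.5% against 10.8%) and 3 in Tgfbr2-cKO (1.70% against 5.76%). None was called in the other 3 libraries. Libraries shared 21 to 61 barcode sequences per pair, none of them a member in both. Tgfbr2, the targeted gene, was at 203 to 306 CPM (UMIs of a gene per 1000000 UMIs, summed over the nuclei of a class) in Col1a2 barcodes of 5 libraries and at 186 CPM in ADWA11 at 21 dpi, so its level there did not mark the Tgfbr2-cKO libraries. UMIs from outside the deleted part may count towards it.

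Members made up very different shares of the libraries. Among the barcodes that passed the filters, the share was 0.277% (16 nuclei, 0.159 to 0.450%) in Ctrl at 7 dpi, 0.0217% (2 nuclei, 0.00263 to 0.0785%) in ADWA11 at 7 dpi and 11.7% (947 nuclei, 11 to 12.4%) in Tgfbr2-cKO at 7 dpi. At 21 dpi it was 0.220% (17 nuclei, 0.128 to 0.352%) in Ctrl, 0.299% (26 nuclei, 0.196 to 0.438%) in ADWA11 and 3.66% (176 nuclei, 3.15 to 4.23%) in Tgfbr2-cKO. The 2 Tgfbr2-cKO libraries were far above the other 4, and the interval of neither overlapped with any of the others. The share was 42.2-fold higher in Tgfbr2-cKO than in Ctrl at 7 dpi (log2 ratio 5.40, 4.69 to 6.21) and 16.6-fold higher at 21 dpi (4.06, 3.34 to 4.87). With no limit on non-neuronal genes, a setting added after the data had been seen, it was 33.7-fold higher at 7 dpi (5.08, 4.47 to 5.76) and 7.75-fold higher at 21 dpi (2.95, 2.45 to 3.49). At 7 dpi the mice stood far apart, at 13.8-fold (log2 ratio 3.79, 3.0 to 4.69) in male nuclei and a log2 ratio of 8.22 (5.74 to 13.5) in female nuclei, where Ctrl held 1 member. At 21 dpi it was 12.8-fold in female and 19.4-fold in male nuclei. Genotype and library cannot be told apart in these shares.

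**Figure D1:**
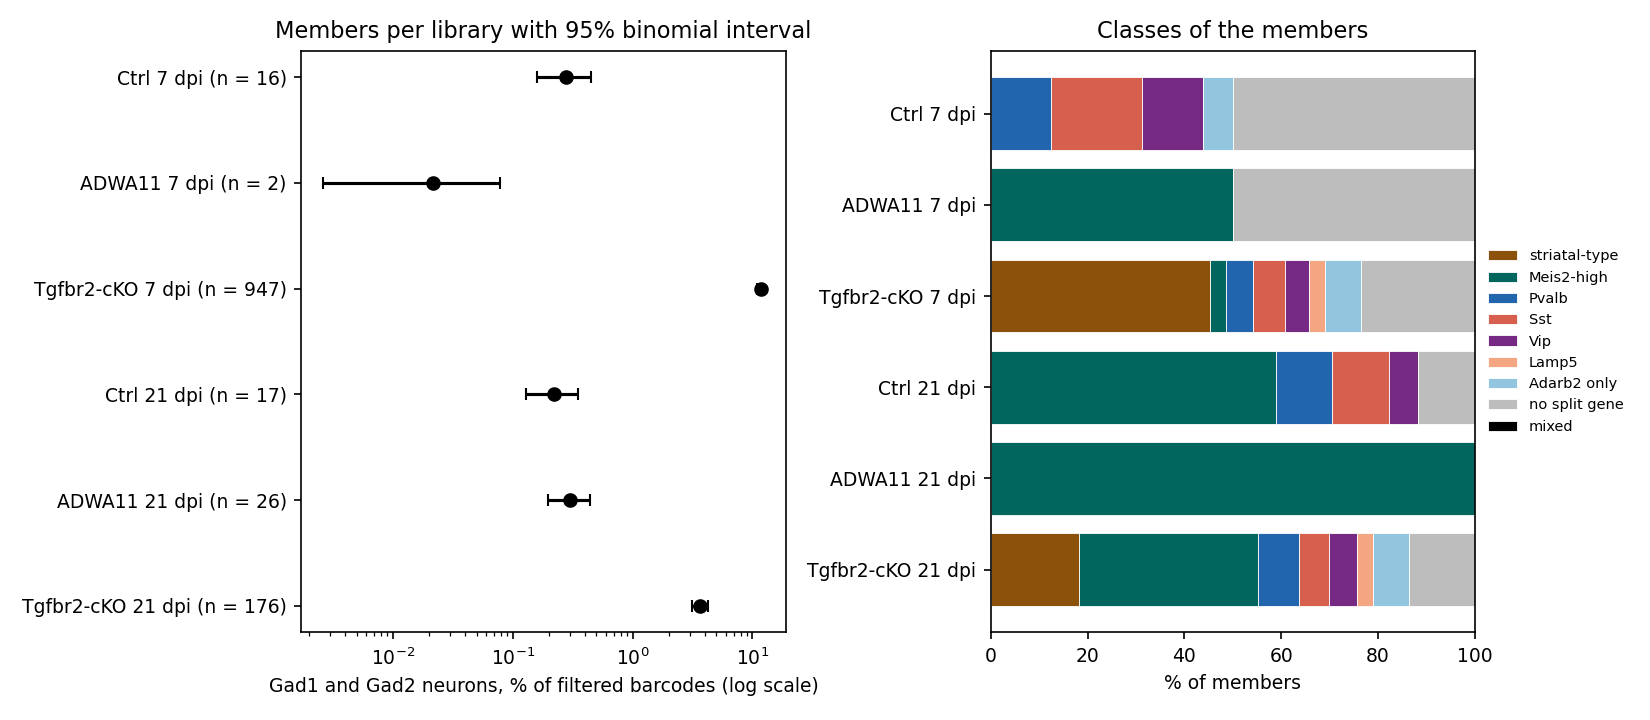
The left panel plots members as a percentage of the barcodes that passed the filters in each of the 6 libraries, on a log axis with 95% binomial intervals, and the right panel plots the share of members in each class. Both Tgfbr2-cKO libraries (11.7% and 3.66%) sit above the other 4 (0.0217 to 0.299%), and the striatal-type and Meis2-high shares differ between libraries.

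Excitatory nuclei, chosen by Slc17a7, were most frequent in the same libraries. At 7 dpi there were 22 in Ctrl, 13 in ADWA11 and 2269 in Tgfbr2-cKO. At 21 dpi there were 55, 3 and 386 in the same order. Their share was 73.5-fold higher in Tgfbr2-cKO than in Ctrl at 7 dpi and 11.3-fold higher at 21 dpi. By mouse it was 71.9-fold higher in male nuclei at 7 dpi, with a log2 ratio of 8.84 (6.36 to 14.1) from 1 Ctrl nucleus in female ones, and 6.44-fold in female and 25.7-fold in male nuclei at 21 dpi. As a share of all neurons chosen by the 2 rules, members were 42.1% (26.3 to 59.2%) in Ctrl, 13.3% (1.66 to 40.5%) in ADWA11 and 29.4% (27.9 to 31.1%) in Tgfbr2-cKO at 7 dpi. At 21 dpi they were 23.6% (14.4 to 35.1%), 89.7% (72.6 to 97.8%) and 31.3% (27.5 to 35.3%) in the same order. The ADWA11 library at 21 dpi stood apart, with 26 inhibitory nuclei to 3 excitatory ones.

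The number of members differed between the mice of a library. By Xist and Y-linked UMIs, 679 members of Tgfbr2-cKO at 7 dpi were female, 158 male and 110 not assigned, and in Tgfbr2-cKO at 21 dpi 83 were female, 68 male and 25 not assigned. In Ctrl at 7 dpi 14 of 16 members were male, and in Ctrl at 21 dpi 13 of 17 were female. Of the barcodes that passed the filters in Tgfbr2-cKO at 7 dpi 4784 were female and 1863 male, so members were 14.2% and 8.48% of them, and at 21 dpi 4.05% of 2047 and 3.41% of 1993. Values from the Tgfbr2-cKO library at 7 dpi therefore weigh its female mouse most.

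Striatal-type nuclei were seen in the Tgfbr2-cKO libraries alone. There were 429 of 947 members at 7 dpi and 32 of 176 at 21 dpi (18.2%, 12.8 to 24.7%). Ctrl and ADWA11 held 0 of 16 and 0 of 2 at 7 dpi and 0 of 17 and 0 of 26 at 21 dpi, which allow a share of up to 20.6%, 84.2%, 19.5% and 13.2%. Of all barcodes that passed the filters, striatal-type nuclei were at least 102-fold more frequent in Tgfbr2-cKO than in Ctrl at 7 dpi and at least 17.1-fold at 21 dpi, with Ctrl set to 3 counts. By mouse these bounds were 55.7-fold in female and 2.85-fold in male nuclei at 7 dpi, and 14.7-fold and 2.28-fold at 21 dpi. The male bounds rest on 7 and 6 nuclei. Of these 6 and 5 had under 2 UMIs of each of Drd1 and Drd2, against 112 of 379 and 1 of 22 female nuclei. Levels of other genes in the male nuclei, which set them apart from the female ones, are given below. The shares moved with depth. With nuclei thinned to 4000 UMIs striatal-type nuclei were 20% of 260 members at 7 dpi and 1.59% (1 of 63) at 21 dpi, and members of Ctrl and ADWA11 at 21 dpi were shallower, with medians of 11677 and 7585.5 UMIs against 20086.5 in Tgfbr2-cKO. Holding 4 of the 12 genes was not particular to inhibitory nuclei, since 11.5% of excitatory nuclei in Tgfbr2-cKO at 7 dpi and 11.1% at 21 dpi did so, against 0.375% and 0.163% of myeloid nuclei.

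**Figure D2:**
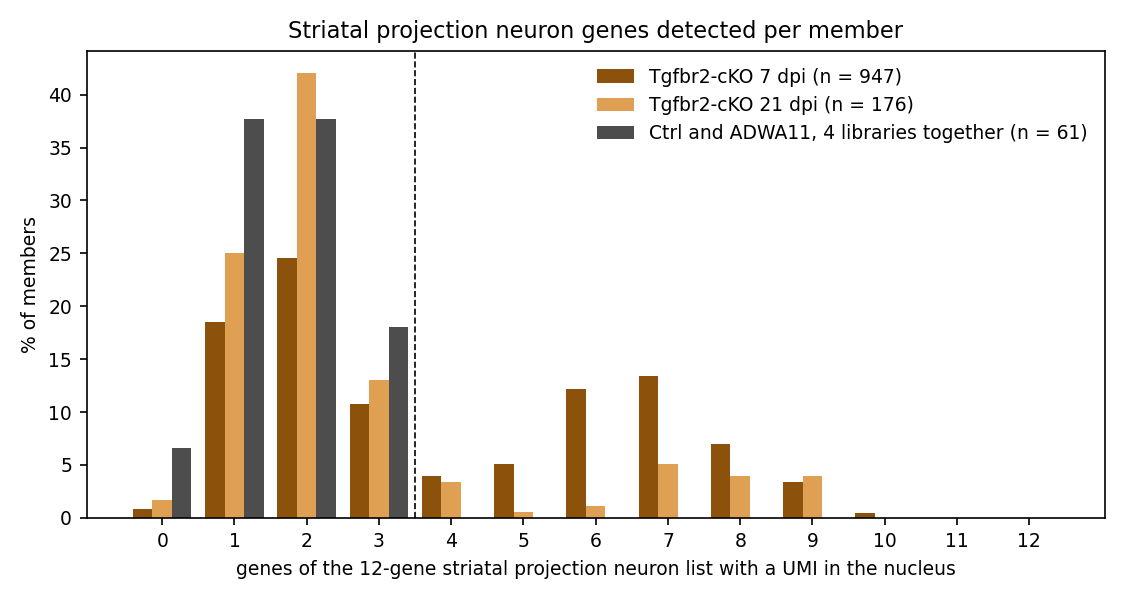
The histogram plots the percentage of members by how many of 12 striatal projection neuron genes each had a UMI of, for Tgfbr2-cKO at 7 dpi, Tgfbr2-cKO at 21 dpi and the 4 Ctrl and ADWA11 libraries together (61 nuclei). The dashed line marks the minimum of 4 genes, past which lie 429 nuclei at 7 dpi, 32 at 21 dpi and none of the 61.

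These nuclei differed by mouse. In the female mouse of Tgfbr2-cKO at 7 dpi 379 of 679 members were striatal-type (55.8%, 52.0 to 59.6%), against 7 of 158 in the male mouse (4.43%, 1.80 to 8.92%). At 21 dpi the shares were 22 of 83 (26.5%, 17.4 to 37.3%) in the female mouse and 6 of 68 (8.82%, 3.31 to 18.2%) in the male mouse. The few male nuclei did not carry the striatal genes at the female level. Rgs9, which shortens dopamine signals, was at 934 CPM in the female striatal-type nuclei at 7 dpi and at 18.9 CPM in the male ones, and Ppp1r1b, the dopamine target DARPP-32, was at 43.4 and 0 CPM. Erbb4, a neuregulin receptor of cortical interneurons, was at 701 CPM in the female nuclei and at 8311 CPM in the male ones, against 5262 CPM in the other inhibitory nuclei of the male mouse. At 21 dpi Erbb4 was at 37.9 CPM in the female striatal-type nuclei and at 9064 CPM in the male ones, and Lhx6 was at 0 and 63.7 CPM.

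The genes that chose the class were high in it. Pde10a, a phosphodiesterase at chr17:8525372-8986648 (plus strand), was at 4474 CPM in striatal-type and 878 CPM in the other inhibitory nuclei at 7 dpi, and at 3788 and 850 CPM at 21 dpi. Genes that the choice did not use separated the classes as well. Ebf1, a transcription factor of striatal neurons, was at 241 CPM in striatal-type against 1.03 CPM in the other inhibitory nuclei at 7 dpi (log2 ratio 7.88, 6.95 to 9.01). Penk, the enkephalin precursor, was at 70.3 against 3.76 CPM (4.22, 3.72 to 4.78), and Tac1, the substance P precursor, at 43.2 against 7.41 CPM (2.54, 2.16 to 2.95). Ephb1, an ephrin receptor, had log2 ratios of 3.43 at 7 dpi and 3.32 at 21 dpi, and Smad3, which carries TGFβ signals to the nucleus, 2.25 and 2.21. Meis2 itself was at 1774 CPM in striatal-type nuclei, so the Meis2-high class was cut from the members outside them.

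Genes of cortical interneurons were lower in striatal-type nuclei. In Tgfbr2-cKO at 7 dpi 12.7% of 12034 genes compared were at least 2-fold lower than in the other inhibitory nuclei and 8.34% at least 2-fold higher, and against all the rest of the members 12.9% of 12096 were lower and 8.02% higher. Of 9 measured MGE lineage genes all 9 were at least 2-fold lower, with a median log2 ratio of -2.95. CGE lineage genes were lower for 5 of 7, fast-spiking ion channels for 8 of 12 (median -1.17) and perineuronal net genes for 5 of 9 (median -2.43). Lhx6 was at 4.99 against 54.1 CPM (-3.44, -3.94 to -2.97). Kcnc2, a potassium channel of fast-spiking neurons, was at 224 against 2300 CPM (-3.36, -3.43 to -3.29). At 21 dpi 13.3% of 7157 genes were at least 2-fold lower and 7.42% higher. There 8 of 9 MGE lineage genes were lower (median -1.72), as were 5 of 12 fast-spiking channels and 4 of 7 perineuronal net genes.

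Striatal projection neurons are of 2 kinds, and both were found. At 7 dpi 114 of 429 striatal-type nuclei had at least 2 UMIs of Drd1 and under 2 of Drd2 (Drd1 nuclei), 176 the reverse (Drd2 nuclei), 7 at least 2 of both and 132 of neither. At 21 dpi these were 9, 16, 0 and 7 of 32. Drd1 lies at chr13:54051183-54055705 on the minus strand and Drd2 at chr9:49340627-49408177 on the plus strand. The peptides followed the receptors. In Drd1 against Drd2 nuclei at 7 dpi Tac1 was at 71.3 and 9.44 CPM (log2 ratio 2.92, 2.34 to 3.55), Pdyn, the dynorphin precursor, at 31.6 and 2.02 CPM (3.97, 2.78 to 5.45), and Penk at 6.94 and 172 CPM (-4.63, -5.40 to -3.96). Adora2a, the adenosine receptor of Drd2 neurons, was at 0.386 CPM, from 1 UMI, and 128 CPM (-8.37, -13.68 to -5.89). The transcription factors Ebf1, at 447 and 11.1 CPM, and Isl1, at 26.6 and 6.07 CPM, were on the Drd1 side.

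Genes common to both kinds of striatal neuron differed little between the Drd1 and Drd2 nuclei at 7 dpi. Rgs9 was at 999 and 951 CPM (0.07, -0.01 to 0.15), Ppp1r1b at 44.7 and 39.8 CPM (0.17, -0.21 to 0.55) and Pde10a at 4696 and 4972 CPM (-0.08, -0.12 to -0.05). The split was repeated at 21 dpi in 9 and 16 nuclei, with Tac1 at 83.6 and 0 CPM, Ebf1 at 426 and 0 CPM, Penk at 0 and 198 CPM and Adora2a at 0 and 128 CPM. The common genes were less even there, with Rgs9 at 1069 and 1030 CPM (0.05, -0.17 to 0.27), Pde10a at 3804 and 5204 CPM (-0.45, -0.56 to -0.34), Ppp1r1b at 29.1 and 65.1 CPM (-1.16, -2.52 to 0.03) and Meis2 at 1247 and 2264 CPM (-0.86, -1.04 to -0.68). Of the Drd1 and Drd2 nuclei at 7 dpi, 104 and 157 were female and 0 and 1 male.

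The members with fewer than 4 striatal genes, of which 8 of 518 at 7 dpi and 3 of 144 at 21 dpi in Tgfbr2-cKO had none, were split by Pvalb, Sst, Vip, Lamp5 and Adarb2, each at 2 UMIs or more. Of the first 4 genes the one with most UMIs gave the class, so a nucleus could hold others of them, and Adarb2 was used where none reached 2. Tgfbr2-cKO at 7 dpi held 54 Pvalb nuclei (5.70% of members), 64 Sst nuclei (6.76%), 46 Vip nuclei (4.86%), 32 Lamp5 nuclei (3.38%), 1 nucleus with a tie at the top, 98 with Adarb2 alone (10.3%) and 223 with none (23.5%). Tgfbr2-cKO at 21 dpi held 15 Pvalb (8.52%), 11 Sst (6.25%), 10 Vip (5.68%), 6 Lamp5 (3.41%), 78 Adarb2 alone (44.3%) and 24 with none (13.6%). As shares of members the Pvalb, Sst, Vip and Lamp5 classes were close between the times, while Adarb2 alone was at 10.3% and 44.3%. As shares of all barcodes that passed the filters the order was another one. Adarb2 alone was at 1.21% (0.984 to 1.47%) at 7 dpi and 1.62% (1.29 to 2.02%) at 21 dpi, while Pvalb was at 0.667% and 0.312%, Sst at 0.791% and 0.229%, Vip at 0.568% and 0.208%, and Lamp5 at 0.395% and 0.125%. The shares also differed between the mice, with Vip at 2.65% of female and 16.5% of male members and Lamp5 at 2.06% and 8.23% at 7 dpi. Of 12 subtype shares over both times 11 moved past their counting error when nuclei were thinned to 4000 UMIs, 8 in male nuclei alone and 6 with the split at 1 UMI. Of the nuclei with Adarb2 alone 27 of 98 at 7 dpi and 65 of 78 at 21 dpi were Meis2-high.

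Pvalb, Sst and Vip were rare outside the members, and Lamp5 and Adarb2 were not. At 2 UMIs, Pvalb was found in 6.55% of members, 0.353% of excitatory and 0% of myeloid nuclei in Tgfbr2-cKO at 7 dpi, Sst in 8.45%, 0.176% and 0.187%, and Vip in 5.07%, 0% and 0.187%. The median nucleus held 16314, 20784 and 5967.5 UMIs in the same order. Lamp5 was found in 6.76% of members and 7.84% of excitatory nuclei, and at 21 dpi in 6.25% and 23.1%, so it did not mark inhibitory nuclei by itself. Adarb2 was found in 41.7% of members, 8.46% of excitatory and 2.81% of myeloid nuclei at 7 dpi, and in 59.7%, 13.7% and 1.72% at 21 dpi. In Ctrl at 7 dpi the members were 2 Pvalb, 3 Sst, 2 Vip, 1 Adarb2 and 8 with none, and in Ctrl at 21 dpi 3 Pvalb, 2 Sst, 1 Vip, 8 Adarb2 and 3 with none.

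**Figure D3:**
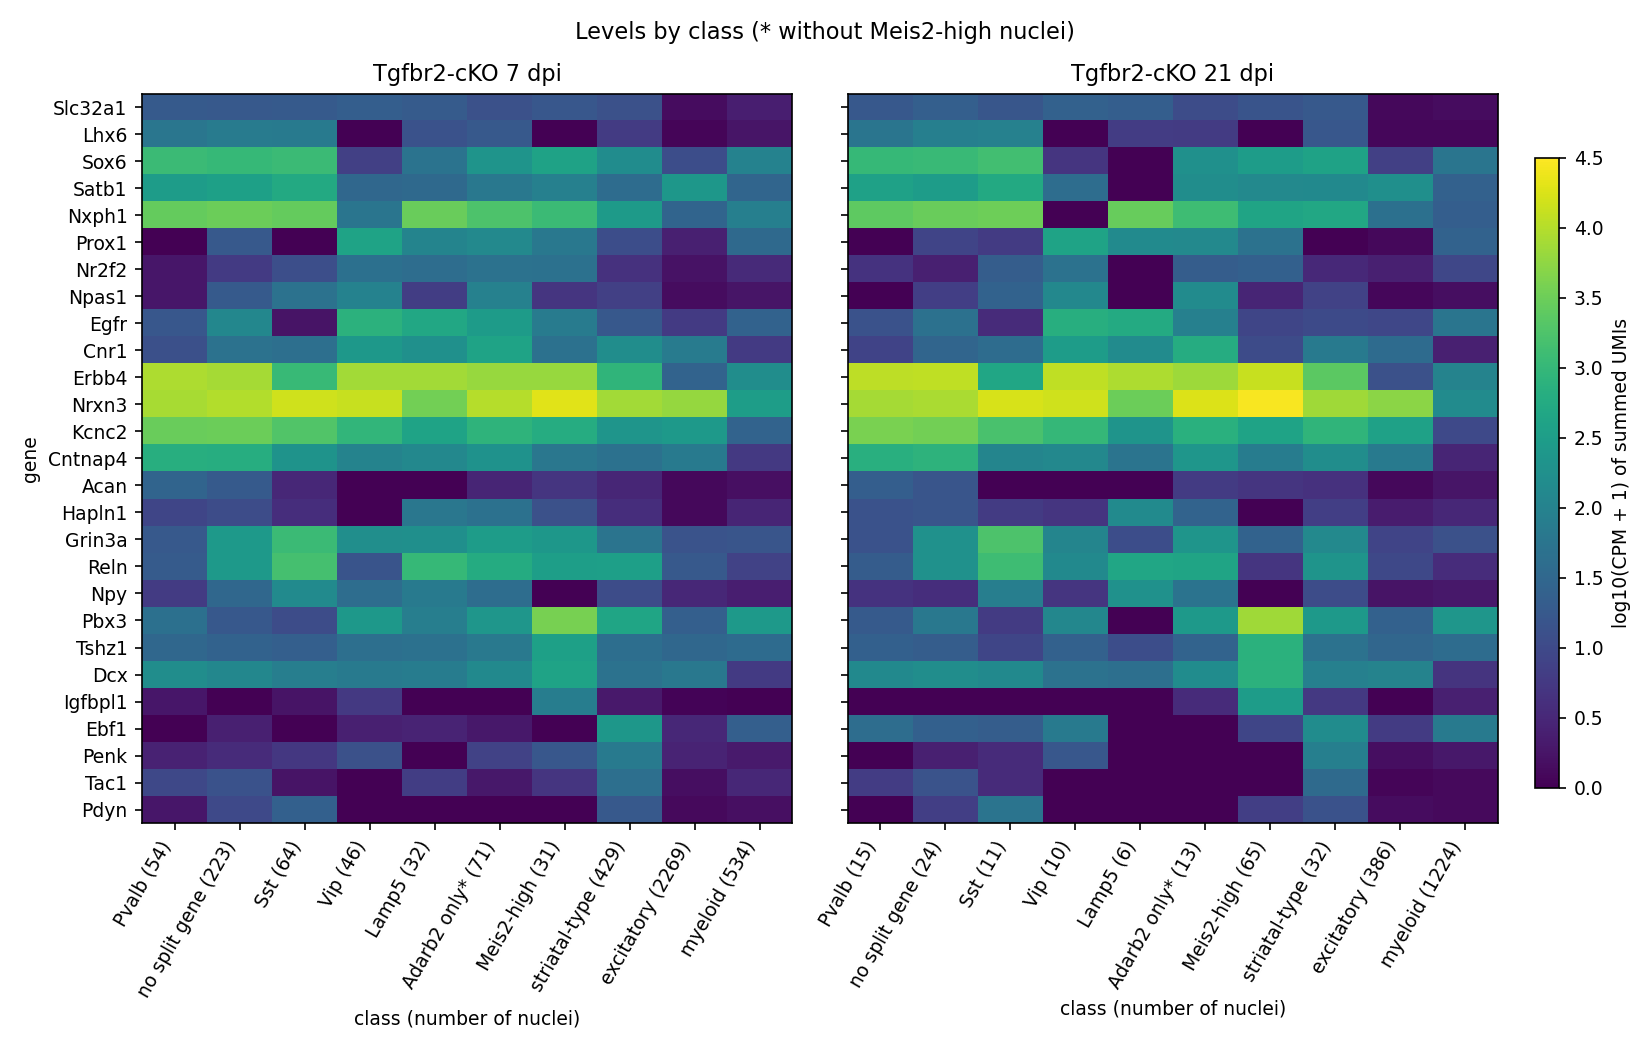
The heat maps plot the level of 27 genes as log10(CPM + 1) in 10 classes of nuclei of Tgfbr2-cKO at 7 dpi and at 21 dpi, to be compared along a row and not between genes. Lhx6 and Sox6 are high in Pvalb, Sst and unsplit nuclei, Prox1 in Vip nuclei, Penk and Ebf1 in striatal-type nuclei, and Pbx3 and Tshz1 in Meis2-high nuclei.

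Lineage genes that had not made the split followed it. Lhx6, the MGE transcription factor at chr2:36081953-36105408 (minus strand), was at 57.2 CPM in Pvalb, 67.9 in Sst, 0 in Vip, 12.8 in Lamp5 and 72.6 CPM in unsplit nuclei at 7 dpi. At 21 dpi Lhx6 was at 55.4, 94.4, 0, 5.36 and 85.4 CPM in the same order. Prox1, the CGE transcription factor at chr1:190118035-190170714 (minus strand), was at 0 CPM in Pvalb, 0 in Sst, 402 in Vip, 104 in Lamp5 and 17.1 CPM in unsplit nuclei at 7 dpi, and at 0, 5.10, 414, 139 and 7.24 CPM at 21 dpi. Vip nuclei thus had no Lhx6 UMI at either time, and Lhx6 was higher in Pvalb, Sst and unsplit than in Lamp5 nuclei at both times, with Sst and unsplit nuclei in exchanged order. Sox6, which acts with Lhx6 in MGE neurons, was at 1177 CPM in Pvalb, 1178 in Sst and 6.10 CPM in Vip nuclei at 7 dpi.

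For each class the comparison was with the rest of the members in Tgfbr2-cKO at 7 dpi, over 12096 genes. That rest held the 429 striatal-type nuclei, in which MGE and CGE lineage, fast-spiking channel and perineuronal net genes were mostly lower, as given above. The part of these nuclei in the ratios of the classes was not tested. In Pvalb nuclei 4.83% of these genes were at least 2-fold higher and 12.8% lower, and 6 of 12 fast-spiking ion channels were higher (median log2 ratio 1.02). These included Kcns3, a modifier of potassium channels, at a log2 ratio of 1.67. The log2 ratio was 2.31 for Syt2, the calcium sensor of fast GABA release, 2.21 for Acan, the core protein of perineuronal nets, and 1.56 for Cntnap4, a synaptic adhesion protein of interneurons. Of the CGE lineage genes 6 of 7 were lower (median -3.67). The leading gene by the rule on named genes was Mybpc1, a myosin-binding protein, at 90.9 CPM against 13.1 CPM (log2 ratio 2.80).

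In Sst nuclei 4.32% of genes were at least 2-fold higher and 10.7% lower. All 7 measured genes of the Sst list, apart from Sst itself, were higher (median log2 ratio 2.95), as were 6 of 9 MGE lineage genes (median 1.33). Grin3a, an NMDA receptor subunit of Sst neurons, was detected in 100% of Sst nuclei at a log2 ratio of 3.12, and the log2 ratio was 3.11 for Elfn1, a synaptic organiser of these neurons, and 3.71 for Hpse. Erbb4 was lower in Sst nuclei (log2 ratio -1.96), at 1078 CPM against 8809 CPM in Pvalb and 7593 CPM in Vip nuclei, and at 21 dpi it was at 454, 11199 and 11518 CPM. Lama4, a laminin chain, was at 196 CPM against 16.5 CPM in the rest. Of 8 measured interferon response genes 3 were higher in Sst nuclei (median 0.81), led by Ifit1 at 59.1 CPM (log2 ratio 3.09).

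In Vip nuclei 6.75% of genes were at least 2-fold higher and 13.6% lower. Of 7 measured CGE lineage genes 5 were higher (median log2 ratio 2.47, Prox1 4.18), and 5 of 9 MGE lineage genes were lower (median -1.84, Sox6 -6.44). Cp, which encodes ceruloplasmin, was at 140 CPM against 3.78 CPM (log2 ratio 5.21). The log2 ratio was 4.49 for Npy1r, a neuropeptide Y receptor, 3.61 for the chemokine Cxcl14 and 2.66 for Pnoc, the nociceptin precursor. Egfr was at 765 CPM in Vip nuclei and at 16.0 CPM in Pvalb nuclei at 7 dpi. At 21 dpi Egfr was at 657 and 12.5 CPM.

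In Lamp5 nuclei 8.06% of genes were at least 2-fold higher and 10.4% lower. All 5 measured genes of the Lamp5 and Sncg list, apart from Lamp5, were higher (median log2 ratio 1.35), led by Ndnf, a marker of neurogliaform cells, at 4.76. Pde11a, a phosphodiesterase, was at 757 CPM against 35.8 CPM (log2 ratio 4.40). The log2 ratio was 3.0 for Kit, the stem cell factor receptor, 2.95 for Hapln1, a perineuronal net link protein, and -1.69 for Kcnc2. In the nuclei with Adarb2 alone, where 6.28% of genes were higher and 7.18% lower, 5 of 7 CGE lineage genes were higher (median log2 ratio 1.62).

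The 223 nuclei with none of the split genes resembled the MGE classes in their level of Lhx6, given above. The rest that they were compared with here held the 429 striatal-type nuclei. There 4.78% of genes were at least 2-fold higher than in the rest and 8.64% lower, and 6 of 9 MGE lineage genes were higher (median log2 ratio 1.5, Lhx6 2.07) while 3 of 7 CGE lineage genes were lower. Fast-spiking channels were higher for 4 of 12 (median 0.76, Kcnc2 2.05) and perineuronal net genes for 4 of 9 (Acan 2.14). Il1rapl2, a synaptic adhesion gene, was at 2115 CPM against 314 CPM (log2 ratio 2.75), and the log2 ratio of Corin, a membrane protease, was 4.12.

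Meis2-high nuclei were found in 5 of the 6 libraries. There were 0 of 16 members in Ctrl at 7 dpi (a share of up to 20.6%), 1 of 2 in ADWA11 at 7 dpi and 31 of 947 in Tgfbr2-cKO at 7 dpi (3.27%, 2.23 to 4.61%). At 21 dpi they were 10 of 17 in Ctrl (58.8%, 32.9 to 81.6%), 26 of 26 in ADWA11 (100%, 86.8 to 100%) and 65 of 176 in Tgfbr2-cKO (36.9%, 29.8 to 44.5%). As a share of all barcodes that passed the filters they were 3.53-fold more frequent in Tgfbr2-cKO at 21 dpi than at 7 dpi (log2 ratio 1.82, 1.18 to 2.49). In female nuclei alone this was 20 of 2047 against 28 of 4784, with a log2 ratio of 0.74 whose interval held 0 (-0.17 to 1.62), and in male nuclei 35 of 1993 against 0 of 1863, at least 10.9-fold higher with 7 dpi set to 3 counts. Over the same interval the other inhibitory nuclei had a log2 ratio of -1.87 (-2.23 to -1.53), striatal-type nuclei -2.99 (-3.56 to -2.47) and excitatory nuclei -1.80 (-1.96 to -1.65). By mouse, in female and then male nuclei, these log2 ratios were -1.51 and -2.58 for the other inhibitory, -2.88 and -0.32 (-2.17 to 1.48) for striatal-type and -1.59 and -2.29 for excitatory nuclei. In Ctrl the Meis2-high share was at least 2.49-fold higher at 21 dpi than at 7 dpi, with 7 dpi set to 3 counts. By mouse they were 6 of 4097 against 0 of 2108 female and 4 of 2274 against 0 of 2278 male barcodes, and the interval of each log2 ratio held 0.

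Meis2-high nuclei were also set beside each other at 21 dpi. Their share of barcodes was 2.31-fold higher in ADWA11 than in Ctrl (log2 ratio 1.21, 0.11 to 2.42) and 10.4-fold higher in Tgfbr2-cKO than in Ctrl (3.38, 2.41 to 4.51). By mouse the first was 3.42-fold in female and 1.13-fold in male nuclei (log2 ratio 0.18, -1.61 to 2.31), and the second 6.67-fold and 9.98-fold. At 21 dpi non-neuronal genes alone kept out 22 barcodes in Ctrl, beside 17 members, against 8 in ADWA11 and 12 in Tgfbr2-cKO. How many of these were high in Meis2 was not counted, and the part of this limit in the ratios was not tested. With 1 library per group, these ratios compare libraries. The threshold fell in a gap. In Tgfbr2-cKO at 21 dpi 71 of the members with fewer than 4 striatal genes had no Meis2 UMI, 8 lay between 0 and 10 per 10000 UMIs with the highest at 4.14, and the 65 Meis2-high nuclei lay between 18.5 and 180. At 7 dpi 444 had none, 43 lay between with the highest at 8.62, and the 31 high nuclei lay between 11.2 and 114. In ADWA11 at 21 dpi all 26 lay between 35.0 and 93.9.

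Mouse and depth moved with this class. In Tgfbr2-cKO at 7 dpi 28 Meis2-high nuclei were female, 0 male and 3 not assigned. At 21 dpi 20 were female and 35 male in Tgfbr2-cKO, 6 and 4 in Ctrl, and 12 and 10 in ADWA11. The median Meis2-high nucleus held 6483 UMIs in Tgfbr2-cKO at 7 dpi, 7556 at 21 dpi, 8962.5 in Ctrl at 21 dpi and 7585.5 in ADWA11 at 21 dpi, against 28835 UMIs in the other inhibitory nuclei of Tgfbr2-cKO at 21 dpi. These nuclei were thus the shallower ones, and the part of depth in the differences below was not tested.

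The transcription factors Pbx3 and Tshz1 were high in the Meis2-high nuclei of 4 of the 5 libraries that held any. The exception was the 1 Meis2-high nucleus of ADWA11 at 7 dpi, with 16252 UMIs, in which both genes were at 0 and 5 astrocyte genes summed to 1354 CPM. Meis2 lies at chr2:115863064-116065839 and Pbx3 at chr2:34171457-34373142, both on the minus strand. Pbx3, a partner of Meis2, was at 3776 CPM in Tgfbr2-cKO at 7 dpi, 7763 in Ctrl at 21 dpi, 7654 in ADWA11 at 21 dpi and 7165 CPM in Tgfbr2-cKO at 21 dpi. In the other inhibitory nuclei Pbx3 was at 66.8 CPM in Tgfbr2-cKO at 7 dpi, 22.6 in Ctrl at 21 dpi and 74.9 CPM in Tgfbr2-cKO at 21 dpi. Tshz1 was at 362, 875, 1238 and 761 CPM in the Meis2-high nuclei of the 4 libraries in the same order, against 32.7, 22.6 and 19.4 CPM in the other inhibitory nuclei. Lhx6 had no UMI in the Meis2-high nuclei of these 4 libraries, while Erbb4 was at 6405, 14180, 12210 and 13048 CPM in them.

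The next genes are given singly and stand for no list, and Dcx, Prokr2, Cd24a and Tubb2b were chosen after values had been seen. Dcx, a microtubule protein of migrating neurons at chrX:143855842-143933311 (minus strand), was at 413 CPM in Tgfbr2-cKO at 7 dpi, 606 in Ctrl at 21 dpi, 733 in ADWA11 at 21 dpi and 766 CPM in Tgfbr2-cKO at 21 dpi. In the other inhibitory nuclei Dcx was at 116, 181 and 130 CPM, so it was present in both. Igfbpl1, at chr4:45809468-45826923 (minus strand), was at 78.7, 146, 122 and 310 CPM in the Meis2-high nuclei, and in the other inhibitory nuclei at 0.570 CPM in Tgfbr2-cKO at 7 dpi, 0 in Ctrl at 21 dpi and 0.405 CPM, from 1 UMI, in Tgfbr2-cKO at 21 dpi. Sox11, a transcription factor of young and of injured neurons, was at 110, 202, 118 and 314 CPM against 27, 22.6 and 15.4 CPM.

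Prokr2, a receptor known for guiding olfactory neuroblasts, was at 55.1, 123, 236 and 127 CPM in the Meis2-high nuclei of the 4 libraries in the order above, against 2.73, 0 and 0.405 CPM in the other inhibitory nuclei. Eya2 was at 82.7, 325, 248 and 158 CPM, against 0.456, 0 and 7.29 CPM. Tubb2b, a tubulin, was at 31.5, 157, 42.1 and 105 CPM against 3.08, 5.66 and 3.24 CPM. Cd24a was at 11.8, 11.2, 21.1 and 27.3 CPM, from 1 to 14 UMIs, against 0.228, 0 and 0.405 CPM. The interneuron transcript Dlx6os1 was at 1083, 1593, 1402 and 1763 CPM, against 250, 176 and 349 CPM in the other inhibitory nuclei. The proliferation genes Mki67 and Top2a, also chosen after the values were seen, had 1 UMI of Mki67 in each of the Tgfbr2-cKO libraries and none of Top2a. Th, the dopamine enzyme of some olfactory neurons, had 1 UMI in Ctrl at 21 dpi and none in the other 3 libraries. Sp8 was at 35.4, 0, 8.42 and 35.1 CPM.

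**Figure D4:**
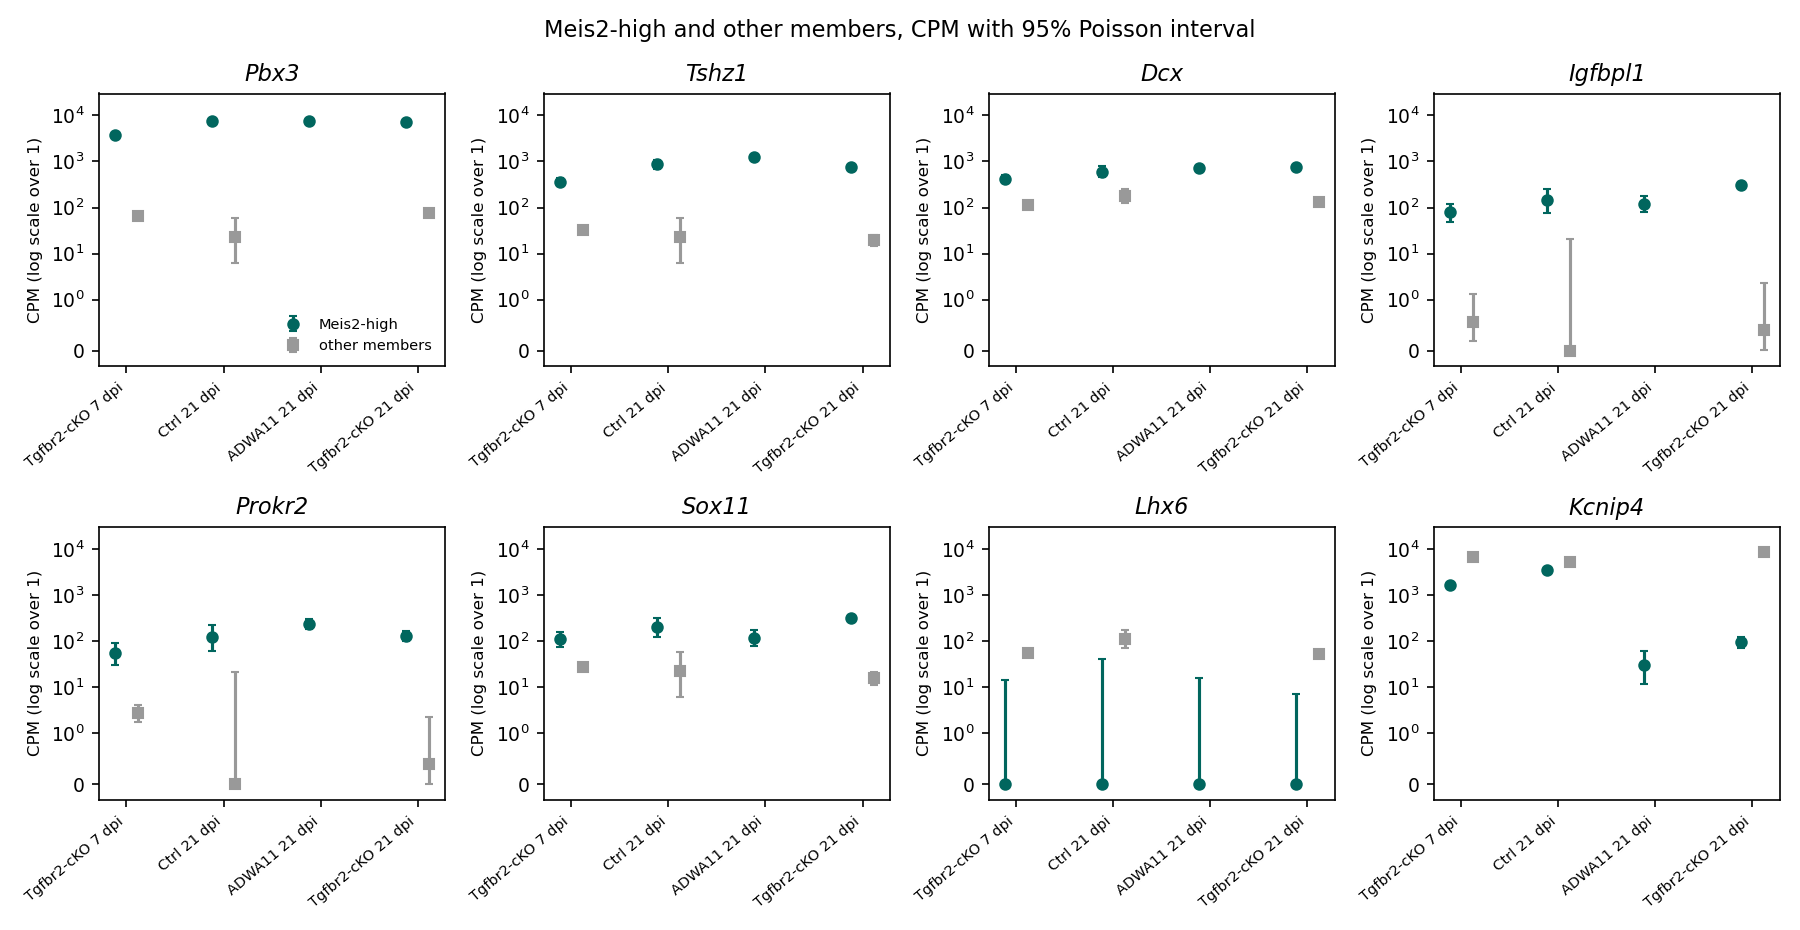
The 8 panels plot the CPM of Pbx3, Tshz1, Dcx, Igfbpl1, Prokr2, Sox11, Lhx6 and Kcnip4 with 95% Poisson intervals in Meis2-high nuclei (circles) and in the other inhibitory nuclei (squares) of Tgfbr2-cKO at 7 dpi, Ctrl, ADWA11 and Tgfbr2-cKO at 21 dpi, with no other inhibitory nuclei in ADWA11 at 21 dpi. Circles lie above squares for the first 6 genes (Pbx3 at 3776 to 7763 CPM against 22.6 to 74.9 CPM) and at 0 for Lhx6.

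Over all genes, Meis2-high nuclei were set against the other inhibitory nuclei of the same library. In Tgfbr2-cKO at 21 dpi 14.0% of 6902 genes were at least 2-fold higher and 22.3% lower. Fast-spiking ion channels were lower for 10 of 12 (median log2 ratio -2.76), ionotropic glutamate receptor subunits for 12 of 14 (median -3.04), GABA-A receptor subunits for 7 of 11 (median -1.63) and MGE lineage genes for 6 of 9 (median -1.36). Kcnc2 was at 410 against 2358 CPM (-2.53, -2.73 to -2.33), and the glutamate receptor subunit Grin2a at 81.9 against 1422 CPM (-4.12, -4.59 to -3.68). The log2 ratio of Grid1, a synaptic receptor of the glutamate family, was -5.64, while the kainate receptor subunit Grik3 was on the higher side at 322 against 108 CPM (1.57, 1.28 to 1.86).

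Among the lowest genes in Meis2-high nuclei at 21 dpi, Kcnip4, a potassium channel partner, was at 93.6 against 8395 CPM (log2 ratio -6.49, -6.93 to -6.08), Nrg3, a ligand of Erbb4, at 76.1 against 5819 CPM (-6.26), and the log2 ratio of Lingo2 was -6.12. Kcnip4 in Meis2-high nuclei was at 1634 CPM in Tgfbr2-cKO at 7 dpi, at 3455 CPM in Ctrl at 21 dpi, where 20% of 10 nuclei had a UMI, and at 29.5 CPM in ADWA11 at 21 dpi, so its level was not alike in the 4 libraries. Among the highest, Chd7, a chromatin remodeller, was at 548 against 19.8 CPM (log2 ratio 4.79, 4.35 to 5.26), and the log2 ratio of Nnat was 4.77. The interneuron transcription factors Dlx1 and Sp9 were also higher, at log2 ratios of 2.64 and 3.57.

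Receptors for guidance cues and genes of the TGFβ pathway differed as well at 21 dpi. Robo2, a Slit receptor, was at 5558 against 1095 CPM (2.34, 2.27 to 2.42), while Robo1 was at 111 against 1914 CPM (-4.11, -4.51 to -3.73). Of the 14 ephrin and semaphorin receptor and related genes 6 were higher and 4 lower, where 14.0% of all genes compared were higher and 22.3% lower. The count of lower genes was thus near the share of all genes. Of 12 measured genes of the TGFβ receptor, integrin and Smad list 9 were higher (median 1.52). Itgb8, the β subunit of the integrin that ADWA11 binds, was at 137 against 8.10 CPM (4.08, 3.34 to 4.87), where 1 nucleus held 80% of the 20 UMIs on the lower side. Itgb8 in Meis2-high nuclei was at 59.1 CPM in Tgfbr2-cKO at 7 dpi, 22.4 CPM, from 2 UMIs, in Ctrl at 21 dpi and 46.3 CPM in ADWA11 at 21 dpi. The log2 ratio was 2.97 for Tgfb2, a TGFβ ligand, and 2.01 for Tgfbr1, the type I receptor.

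At 7 dpi, with 31 Meis2-high nuclei, 12.4% of 10391 genes were at least 2-fold higher and 12.7% lower. Fast-spiking channels were lower for 9 of 12 (median log2 ratio -1.72) and MGE lineage genes for 7 of 9 (median -1.73), while glutamate receptor subunits were lower for 5 of 14 (median -0.87). Itgb8 was at 59.1 against 4.90 CPM (3.59, 2.64 to 4.47), 1 of 6 genes of its list that were higher among 15. Meis1, a relative of Meis2, was at 472 against 7.18 CPM (6.04, 5.59 to 6.50).

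Glial genes moved with the class. In Tgfbr2-cKO at 21 dpi the summed level of 5 astrocyte genes was 252 CPM in Meis2-high and 57.9 CPM in the other inhibitory nuclei, that of 5 oligodendrocyte genes 472 and 66.0 CPM, and that of 6 oligodendrocyte precursor genes 893 and 206 CPM, with all of these genes but Olig2 detected in Meis2-high nuclei. In Tgfbr2-cKO at 7 dpi these sums were 654 and 99.7, 890 and 126, and 1114 and 117 CPM. In Ctrl at 21 dpi they were 292 and 17.0, 56.1 and 34.0, and 628 and 113 CPM, and Pdgfra, Cspg4, Olig1 and Olig2 were at 0 in the Meis2-high nuclei there. In ADWA11 at 21 dpi the 3 sums were 396, 58.9 and 400 CPM. Vcan, a proteoglycan on the precursor list, was at 449, 449, 303 and 523 CPM in the 4 libraries of Meis2-high nuclei. The oligodendrocyte sums of Meis2-high nuclei were thus higher in the Tgfbr2-cKO libraries than in Ctrl and ADWA11, and the part of glial RNA in the differences above was not tested.

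Inhibitory nuclei were set against the excitatory nuclei of the same library, where both had come through the same dissection. In Tgfbr2-cKO at 7 dpi 8.57% of 15675 genes were at least 2-fold higher and 8.93% lower in inhibitory nuclei, and at 21 dpi 9.70% and 7.62% of 12258. The inhibitory side was 45.3% striatal-type and 3.27% Meis2-high at 7 dpi, and 18.2% and 36.9% at 21 dpi. The ratios at 7 and 21 dpi thus come from different mixes of classes. Scaling by trimmed means moved the median of all genes by -0.24 on the log2 scale at 21 dpi and by -0.08 at 7 dpi. Slc32a1, the vesicular GABA transporter and no part of the rule, was higher in members, at 14.7 against 0.407 CPM at 7 dpi (log2 ratio 5.18), with a log2 ratio of 5.97 at 21 dpi.

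The interneuron lists stood highest in that comparison. MGE lineage genes were higher for 8 of 9 at both times, with median log2 ratios of 5.57 and 5.19, and CGE lineage genes for 6 of 7 and 7 of 7, with medians of 4.38 and 3.75. Lhx6 was at 30.2 against 0.136 CPM at 7 dpi (log2 ratio 7.80), with 7.51 at 21 dpi. Erbb4, at chr1:68032186-69108059 (minus strand), was at 3939 against 25.9 CPM (7.25, 7.17 to 7.33) and at 7943 against 11.8 CPM at 21 dpi (9.39, 9.18 to 9.62). In the other inhibitory nuclei alone the level of Erbb4 was closer between the times, as given below. Among other receptors and channels the log2 ratios at 7 and 21 dpi were 6.19 and 8.33 for Kcnip1, 4.01 and 5.21 for Grin3a, and 2.29 and 2.22 for Kcnc2. Perineuronal net genes were higher for 5 of 10 and 4 of 8, with log2 ratios of 4.97 and 4.78 for Acan and 5.24 and 3.77 for Hapln1.

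Receptor subunits and stress genes were mostly within 2-fold of the excitatory nuclei. Of 12 GABA-A receptor subunits 3 were higher at 7 dpi (median log2 ratio 0.07) and 2 at 21 dpi (median -0.03), and of 14 glutamate receptor subunits 4 were higher at each time. Heat shock and unfolded protein response genes were all within 2-fold, with medians of -0.06 over 8 and 0.31 over 7 genes. Immediate early genes were lower for 4 of 14 at 7 dpi (median -0.37) and 6 of 11 at 21 dpi (median -1.23), where 8.93% and 7.62% of all genes compared were lower. In male nuclei alone at 7 dpi a larger part of the list was lower, as given under the processing. Bdnf, a growth factor that cortical excitatory neurons make, was at 1.41 against 25.5 CPM at 7 dpi (log2 ratio -4.18), with -4.76 at 21 dpi, and Arc, a synaptic immediate early gene, had log2 ratios of -2.41 and -4.27. Fos and Egr1 were near equal at 7 dpi, with log2 ratios of -0.31 and -0.03.

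**Figure D5:**
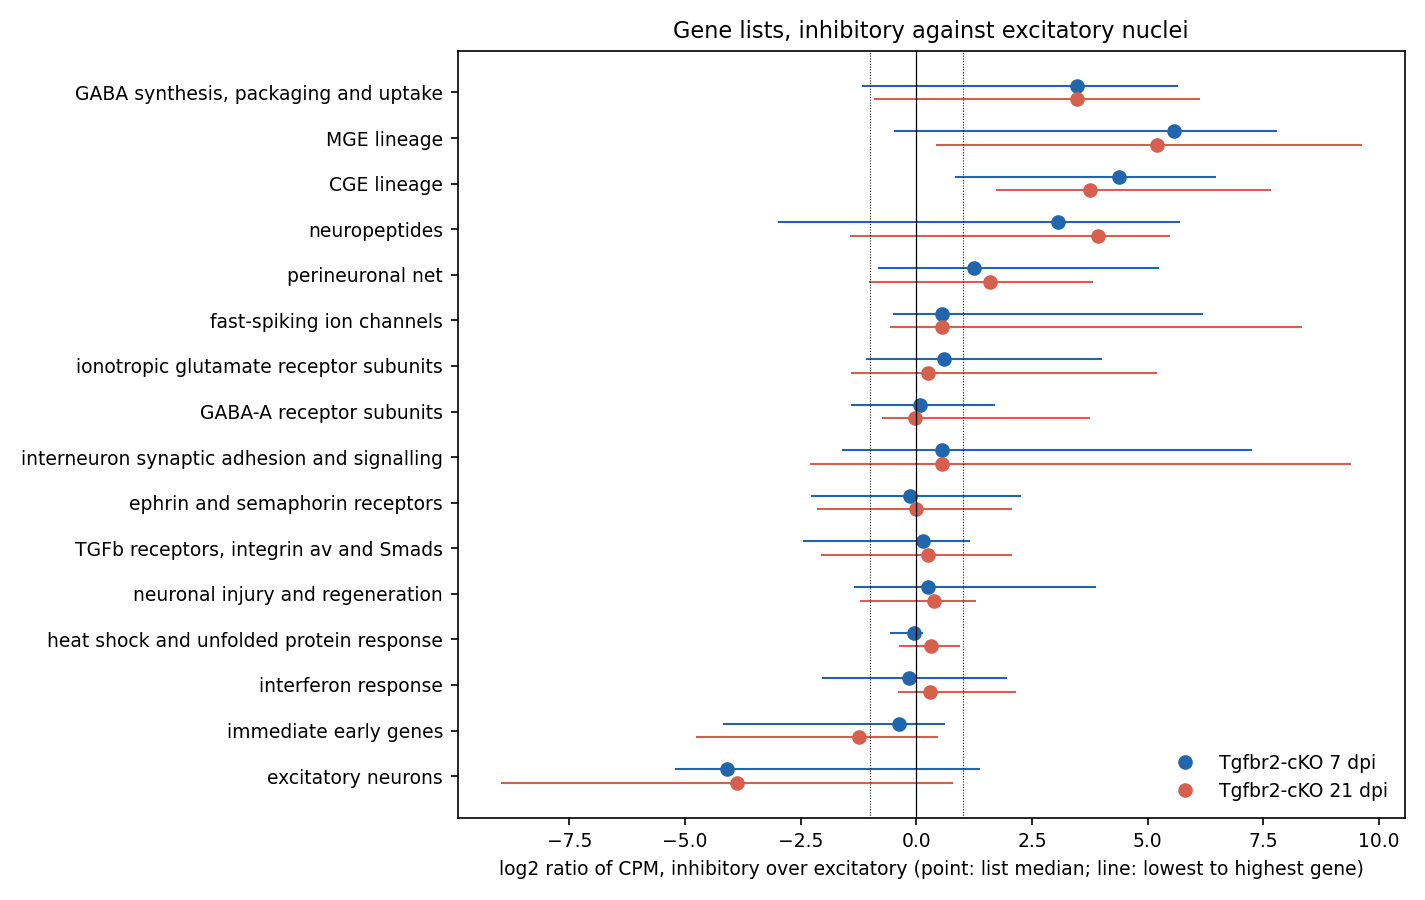
For 16 gene lists the plot gives the median and the lowest to highest log2 ratio of inhibitory over excitatory nuclei in Tgfbr2-cKO at 7 dpi and at 21 dpi. The MGE lineage (5.57 and 5.19) and CGE lineage medians (4.38 and 3.75) lie to the right of 2-fold and the excitatory list (-4.10 and -3.88) to the left at both times.

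Within the Tgfbr2-cKO libraries, members at 21 dpi were set against members at 7 dpi. Over all members 2.91% of 12706 genes were at least 2-fold higher at 21 dpi and 3.42% lower. By mean CPM per nucleus more genes were higher than lower, with the counts given under the processing. The Meis2-type list was higher for 2 of 4 (median 1.15) and the striatal list lower for 4 of 11 (median -0.95). The striatal count was 10 of 11 by mean CPM per nucleus, 2 of 11 in female nuclei and 0 of 4 in male nuclei, where the median was 0.59. Igfbpl1 was at 42.5 CPM at 21 dpi against 1.94 CPM at 7 dpi (log2 ratio 4.46, 3.91 to 5.04), and the log2 ratio of Eya2 was 3.33. Fewer nuclei of a class and less RNA per nucleus are joined in these sums, so the classes were compared one by one.

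In the other inhibitory nuclei, 79 at 21 dpi and 487 at 7 dpi, 1.18% of 10939 genes were at least 2-fold higher at 21 dpi and 2.50% lower. With the minimum of 50 UMIs 129 were higher and 274 lower, and with no filter 1438 were higher and 962 lower. A side with no UMI was set to 3 counts with no filter too, so a gene absent at 21 dpi could count as higher there. The counts with no filter therefore do not show the balance of directions. Most lists of interneuron genes were close between the times. None of 9 MGE, 7 CGE, 14 glutamate receptor, 12 fast-spiking channel, 9 perineuronal net, 11 synaptic adhesion, 14 guidance receptor and 15 TGFβ pathway genes was past 2-fold. Lhx6 was at 52.6 CPM at 21 dpi and 54.1 CPM at 7 dpi (-0.04, -0.33 to 0.24), Sox6 at 801 and 841 CPM (-0.07, -0.14 to 0.00), Grin3a at 376 and 363 CPM (0.05, -0.05 to 0.16), and Erbb4 at 8883 and 6663 CPM (0.42, 0.39 to 0.44).

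Genes lower at 21 dpi were most on the injury list, with 3, and on the interferon and the Lamp5 and Sncg lists, with 2 each, and 6 further lists had 1 each. Of 8 measured interferon response genes 2 were at least 2-fold lower (median -0.63) and none higher. Ifit1, an interferon-induced antiviral gene, was at 3.64 CPM at 21 dpi and 18.6 CPM at 7 dpi (log2 ratio -2.35, -3.50 to -1.39), and 1 nucleus held 55.6% of its 9 UMIs at 21 dpi. In excitatory nuclei 5.21% of 15361 genes were lower at 21 dpi and 1.76% higher, and 6 of 13 interferon genes were lower (median -0.57), with Ifit1 at 0.478 and 7.78 CPM (-4.02, -5.35 to -2.97). Ifit1 was thus lower at 21 dpi in both kinds of neuron.

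Of 9 measured injury and regeneration genes 3 were at least 2-fold lower (median -0.44) in the other inhibitory nuclei, and 1 of 6 measured in female and 1 of 5 in male nuclei alone. Jun, a transcription factor of the injury response, was at 2.02 and 7.75 CPM (-1.94, -3.60 to -0.64). Ecel1, a protease induced in injured neurons, was at 0.405 CPM, from 1 UMI, and 7.52 CPM (-4.22, -9.54 to -1.69). Atf3, which acts with Jun after axon injury, had 0 UMIs at 21 dpi and was at 9.91 CPM at 7 dpi, where 1 nucleus held 36.8% of its UMIs, so that its log2 ratio was -3.03 or lower with 21 dpi set to 3 counts. Gap43, a growth cone protein, was at 47.4 and 40.9 CPM (0.21, -0.10 to 0.52), and Sox11 at 15.4 and 27 CPM (-0.81, -1.35 to -0.31).

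Other genes named by the rule included Spp1, which encodes osteopontin and is abundant in lesion myeloid cells, at 15.4 and 54.5 CPM (-1.82, -2.34 to -1.35), and, with log2 ratios alone, the stress-response gene Gadd45g at -2.39, Nkain1 at -2.74 and Cobl at -2.15. Ptgds, a prostaglandin synthase, was higher at 28.3 and 6.04 CPM (2.23, 1.70 to 2.77). The log2 ratio of Ptgds was also 1.99 in striatal-type and 2.55 in excitatory nuclei, and that of Spp1 was -1.56 and -1.55. Both genes thus differed in the same direction in these 3 classes.

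In striatal-type nuclei, 32 against 429, 2.25% of 9952 genes were at least 2-fold higher at 21 dpi and 5.95% lower. Their own list, which chose the nuclei at both times, had 1 of 11 genes lower and a median log2 ratio of -0.06. MGE lineage genes were higher for 4 of 7 (median 1.19), and the male mouse, whose striatal-type nuclei held Lhx6 and Erbb4 as given above, supplied 6 of 32 of these nuclei at 21 dpi against 7 of 429 at 7 dpi. Prox1 was at 0 CPM at 21 dpi and 10.5 CPM at 7 dpi.

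In Meis2-high nuclei, 65 against 31, 5.94% of 2759 genes were at least 2-fold higher at 21 dpi and 10.5% lower. Igfbpl1 was higher at 310 and 78.7 CPM (1.98, 1.30 to 2.73), as was Slit1, a guidance ligand, at 452 and 134 CPM (1.76, 1.23 to 2.32). Glutamate receptor subunits were lower for 6 of 12 (median -1.35), with Grid1 at 9.75 and 319 CPM (-5.03). Inpp4b, a phosphoinositide phosphatase, was at 50.7 and 638 CPM (-3.65, -4.31 to -3.05). Tcf7l2, a gene of thalamic and midbrain neurons, was at 21.5 and 295 CPM. Of the same list Six3 had UMIs at 7 dpi and none at 21 dpi, while Lef1, Gata3, Gata2, Otx2, Sox14 and Pax7 were at 0 in both. All 28 assigned Meis2-high nuclei at 7 dpi were female and 35 of 55 at 21 dpi were male, so mouse and time cannot be told apart in this class.

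Myeloid and fibroblast genes, which the rule itself limits, were uneven in the members, and glial sums stand above beside the Meis2-high nuclei. At 7 dpi the summed level of 4 myeloid genes was 119 CPM in Ctrl, 77.1 in ADWA11 and 84.3 in Tgfbr2-cKO. At 21 dpi it was 18.8, 67.4 and 52.4 CPM, against 409 to 2598 CPM in myeloid nuclei of the 6 libraries. Fibroblast genes summed to 112, 61.7 and 19.1 CPM at 7 dpi and to 135, 194 and 18.7 CPM at 21 dpi, lower in the Tgfbr2-cKO libraries, where 138 and 273 Col1a2 barcodes were found against 1295 to 3122 in the others. One non-neuronal gene was detected in 13 of 16 members of Ctrl at 7 dpi, 13 of 17 of Ctrl at 21 dpi and 14 of 26 of ADWA11 at 21 dpi, against 196 of 947 and 43 of 176 in Tgfbr2-cKO. Eomes, a marker of olfactory relay neurons, and the midbrain genes Otx2, Sox14 and Pax7 were at 0 in the members of all 6 libraries.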

How the data were processed

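Single nuclei of dissected PT lesions were profiled in 6 libraries (Chromium 3′ v3.1), 1 per group, so samples were grouped by genotype, treatment and day with no replicate. The deposited counts are UMIs per gene and barcode, not normalized, and per the file headers they came from Cell Ranger 7.2.0. The submitters' processing notes list version 7.1.0 and mm10. Whether intronic UMIs were counted is not given in the sources used here. Coordinates are of GRCm38 (mm10), from GENCODE M21, which held the identifiers of 32158 of 32285 features. UMIs of overlapping or antisense genes were taken as deposited.

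Members were found by the rule given above, and no annotation of cells was used, so a difference from the study's classes may come from the rebuilt names. The members and the 30 gene lists (281 genes) were chosen with earlier results of these data known. The Meis2-high class, the Drd1 and Drd2 split and the comparisons within a class were set after the data had been seen. Excitatory nuclei needed 4 Slc17a7 UMIs. Doublets were called with Scrublet (scanpy 1.11.5, 0.8% per 1000 barcodes) and kept. Sex was read from Xist and Y-linked UMIs.

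UMIs were summed over the nuclei of a class and given as CPM, with exact Poisson intervals for levels, exact conditional binomial intervals for ratios and Clopper-Pearson intervals for shares, all at 95%. Barcodes of 1 library are not independent replicates of a condition. A gene was compared where both sides together held at least 50 UMIs, and at least 2-fold was the size reported. Where 1 side had no UMI, 3 counts were used in its place. Genes of the lists could be named. Outside them, named genes were the 8 highest of each class and the 10 highest and 10 lowest of each comparison. No nucleus held over 20% of the UMIs (of the class alone for the first, of either side for the second). The first were at least 2-fold higher in both mice. For the second the mice had to share a direction only where each mouse had at least 20 nuclei on each side. This was not asked of comparisons with striatal-type nuclei as a class, or with Meis2-high nuclei at 7 dpi. Rule genes, mitochondrial genes, Xist, Tsix and Y-linked genes were left out, and lists were counted without them. Tested on simulated data, the intervals covered the known ratio of 95.4% of genes, changed ones included, for 21 against 7 dpi in all members (12706 genes) and 95.8% for inhibitory against excitatory nuclei at 7 dpi (15675 genes). The simulated sums were drawn with counting (Poisson) error alone and no spread between nuclei or mice. They check the code and do not show the coverage in these data. Work was done in Python 3.11.15 with numpy 2.4.6, scipy 1.17.1, pandas 2.3.3 and matplotlib 3.10.9, and edgeR 4.0.16 gave the trimmed mean (TMM) scaling used as an alternative. Values of a few genes are not reported here.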

Additional observations from a re-analysis of the deposited data

Results flagged for a closer look

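The share of striatal-type nuclei was lower at 21 than at 7 dpi in the female mice of the Tgfbr2-cKO libraries and not in the male mice. Among female members it was -29.3 percentage points at 21 dpi relative to 7 dpi (55.8%, 52.0 to 59.6%, and 26.5%, 17.4 to 37.3%), and among male members 4.39 percentage points (7 of 158, 4.43%, 1.80 to 8.92%, and 6 of 68, 8.82%, 3.31 to 18.2%). The male intervals overlapped. Male nuclei of this class held less Rgs9 and Ppp1r1b at 7 dpi, and more Erbb4 at both times, than female ones, as given above. With 1 mouse of each sex per library this difference was not tested, and the mice at 7 and at 21 dpi were different animals.

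Barcodes below the minimum of 4000 UMIs also held nuclei that met the rest of the rule. Of the barcodes from 2000 UMIs up to that minimum these were 21 of 1980 in Tgfbr2-cKO at 7 dpi (1.06%, 0.658 to 1.62%) and 3 of 1102 in Tgfbr2-cKO at 21 dpi (0.272%, 0.0562 to 0.793%). They were 2 of 3016 in ADWA11 at 21 dpi (0.0663%) and 0 in the other 3 libraries, which allows up to 0.243% in Ctrl at 7 dpi, 0.282% in ADWA11 at 7 dpi and 0.140% in Ctrl at 21 dpi.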

How the results depend on the processing

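With 1 library per group no result had a test, and no library could be left out. No paired analysis was possible because the labels give the libraries no replicate numbers and no group has a second library. Of 311 values that answer a comparison 230 stayed within their counting error or within 1.5 times their count and 81 moved, and of 214 other values 135 stayed, 78 moved and 1 turned direction. The cause of the moves was not tested beyond what the settings themselves change.

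The share of members was in Tgfbr2-cKO 9.61% (7 dpi) and 3.03% (21 dpi) with a minimum of 2000 UMIs. With at least 8 Gad1 and Gad2 UMIs it was 6.82% and 2.66%, and 0.161% in ADWA11 at 21 dpi. With no UMI of Slc17a7 or of the non-neuronal genes it was 0.0520% in Ctrl, 7.82% in Tgfbr2-cKO (7 dpi), 0.0518% in Ctrl, 0.138% in ADWA11 and 2.52% in Tgfbr2-cKO (21 dpi). Thinned to 4000 UMIs it was 0.0693% in Ctrl, 0% in ADWA11 and 3.21% in Tgfbr2-cKO (7 dpi), 0.150% in ADWA11 and 1.31% in Tgfbr2-cKO (21 dpi). In female nuclei alone it was 0.0474% in Ctrl and 14.2% in Tgfbr2-cKO (7 dpi) and 0.50% in ADWA11 (21 dpi), and in male nuclei alone 0.615%, 0% and 8.48% in Ctrl, ADWA11 and Tgfbr2-cKO at 7 dpi. With no limit on non-neuronal genes, added after the data had been seen, it was 12.9% in Tgfbr2-cKO at 7 dpi and 0.505% in Ctrl at 21 dpi. The Tgfbr2-cKO libraries stayed above the other 4 under each of these settings.

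The inhibitory share of neurons was in Tgfbr2-cKO 19.6% (7 dpi) and 24.9% (21 dpi) with 8 Gad1 and Gad2 UMIs. It was 12% in Ctrl and 21.8% in Tgfbr2-cKO (7 dpi) and 6.78% and 23.9% (21 dpi) with none of Slc17a7 or the non-neuronal genes. Thinned, it was 80% in Ctrl, 0% in ADWA11 and 57.6% in Tgfbr2-cKO (7 dpi) and 100%, 100% and 86.3% (21 dpi), since fewer excitatory nuclei then reached 4 Slc17a7 UMIs. In female nuclei alone it was 39.5% and 35.9% in Tgfbr2-cKO at 7 and 21 dpi, and in male nuclei alone 0% in ADWA11 and 16.1% in Tgfbr2-cKO (7 dpi), and 100% and 27.4% (21 dpi).

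The striatal-type share of members in Tgfbr2-cKO at 7 dpi was 34.1% with 8 Gad1 and Gad2 UMIs, 20% thinned, 55.8% female, 4.43% male and 56.1% with 3 striatal genes. At 21 dpi it was 1.59% thinned, 26.5% female, 8.82% male and 31.3% with 3 genes. The Meis2-high share was 1.99% with 8 UMIs, 7.31% thinned and 0% male at 7 dpi, 100% male in Ctrl at 21 dpi, and 60.3% thinned, 24.1% female and 51.5% male in Tgfbr2-cKO at 21 dpi.

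For 21 against 7 dpi over all members, 781 genes were higher and 722 lower by mean CPM per nucleus, 2132 and 1106 with no filter, and 276 lower with striatal-type nuclei left out. The striatal list was lower for 10 of 11 genes by mean CPM, 1 of 5 without striatal-type nuclei, 2 of 11 in female and 0 of 4 in male nuclei, where its median turned from -0.95 to 0.59, and the Meis2-type list was higher for 4 of 4 by mean CPM. In the other inhibitory nuclei, a comparison added after the data had been seen, 1438 were higher and 962 lower with no filter, and injury genes were lower for 5 of 12 with no filter and for 1 of 6 in female and 1 of 5 in male nuclei. For inhibitory against excitatory nuclei 2798 were higher and 2231 lower at 7 dpi and 3225 and 1621 at 21 dpi with no filter, and 756 were higher in female nuclei at 21 dpi. In all counts with no filter a side with no UMI was set to 3 counts. A gene absent from the side with fewer UMIs could thus count as higher on that side. Immediate early genes were lower for 7 of 10 in male nuclei at 7 dpi and 3 of 5 in female nuclei at 21 dpi, and CGE genes were higher at 21 dpi for 4 of 4 in female and 4 of 5 in male nuclei. The 8 leading genes of each of the 7 classes stayed at least 2-fold higher by mean CPM, and genes were not ranked again. The Ctrl and ADWA11 libraries held 2 to 26 members each, which limits what they can show.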

Other observations

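List genes not named above also differed between the classes of the Tgfbr2-cKO libraries, with Reln, Cnr1 and Nrxn3 chosen after their values were seen. These genes are on lists counted above. The levels are CPM and are not tested, with 1 library at each time. Reln, which encodes the secreted glycoprotein reelin, was highest in Sst nuclei, at 1507 CPM at 7 dpi and 1245 CPM at 21 dpi, and next in Lamp5 nuclei, at 1026 and 455 CPM. It was at 18.5 and 19.7 CPM in Pvalb nuclei, while in Meis2-high nuclei it was at 331 CPM (84 UMIs) at 7 dpi and 3.90 CPM (2 UMIs) at 21 dpi.

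Cnr1, the CB1 cannabinoid receptor, was highest in Vip nuclei among the Pvalb, Sst, Vip and Lamp5 classes, at 248 CPM at 7 dpi and 307 CPM at 21 dpi, and lowest of these 4 in Pvalb nuclei, at 11.8 and 7.15 CPM. Nrxn3, a presynaptic adhesion protein, was highest in Meis2-high nuclei at both times, at 19563 and 28322 CPM, and lowest in Lamp5 nuclei, at 3451 and 3143 CPM.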
